A study of Mus musculus with 72 samples.

Results

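Nodal signalling was described across 9 genes in mouse embryonic stem cells with and without the nucleoporin Nup133. The genes are the ligands Nodal and Gdf3, the secreted antagonists Lefty1, Lefty2 and Cer1, the co-receptor Tdgf1, the receptor Acvr2b, the transcription factor Foxh1 and the inhibitory Smad7. They were taken by name from 45321 genes in the deposited counts, and each is represented by its transcript with the highest total over all libraries. All 9 passed the filter on low counts that left 18273 genes for testing.

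The study followed these cells on the way to neuronal progenitors, at day 0, day 2 and day 3. The controls were 2 biological replicates of HM1 (Nup133+/+, 40 chromosomes, XY) and the blastocyst-derived line 1A4 (Nup133+/+, Sox1gfp/+, 40 chromosomes, XY). The knockout lines 14 and 19 are Nup133-/- derivatives of HM1 made by CRISPR/Cas9, both XY, with 40 chromosomes in line 14 and, in the labels' word, likely so in line 19. Knockout line 319 is blastocyst-derived (Nup133merm/merm, Sox1gfp/+, 42 chromosomes, XX, with extra chromosomes 8 and 12). Every line was grown on DR4 mouse embryonic fibroblasts in serum with LIF, the cytokine that holds mouse stem cells undifferentiated, and the fibroblasts were removed before day 0 by 20 min of plating. Day 2 cells had been moved to N2B27, a serum-free medium that lets stem cells turn towards neural fates, and day 3 cells had then received 1 µM all-trans retinoic acid for 24 h. At each day 3 samples stood for either genotype, in 6 groups, and each sample had been sequenced as 4 technical replicates that were added up. Each knockout series is 1 line, and both HM1 series are the same line. Between line 319 and lines 14 and 19, Sox1gfp, sex chromosomes, karyotype, the mutant allele and the blastocyst origin cannot be told apart. Control line 1A4 shares Sox1gfp and the blastocyst origin with line 319, but not its sex chromosomes, karyotype or allele.

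Nodal is a secreted ligand of the TGF-beta family that binds activin receptors together with the co-receptor Tdgf1, also called Cripto, and activates Smad2 and Smad3, which act on DNA with partners such as Foxh1. Lefty1 and Lefty2 are textbook targets of the pathway, and the Lefty proteins and Cer1 hold the ligand in check outside the cell. In the mouse embryo the pathway patterns the epiblast and the primitive streak, and stem cells in culture express many of its parts.

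Sequencing gave between 16.5 M gene counts (line 19, day 2) and 54.4 M (line 14, day 3) per sample. Nup133, the mutated gene, lay between 180 and 323 counts per 1000000 (CPM) in the 9 control samples and between 14.3 and 37.1 CPM in the 9 knockout samples. The day 0 samples carried summed levels of 4925 to 6997 CPM over 8 embryonic stem cell markers. None of the 9 members lies on a chromosome that is extra in line 319 (0 of 9). Values below are in CPM scaled by the TMM method, in the order HM1 replicate 1, HM1 replicate 2 and line 1A4 for the controls and lines 14, 19 and 319 for the knockout. Differences are log2 fold changes from 1 edgeR quasi-likelihood fit, and a gene was called at a Benjamini-Hochberg adjusted p below 0.05 over all genes tested. The standard error after each ± sign was derived from that test, as the absolute log2 fold change over the square root of its F statistic. In bulk RNA, fewer cells with a transcript and less transcript per cell cannot be told apart.

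In the annotation (GRCm38), Nodal has 3 exons on the plus strand of chromosome 10 (chr10:61417972-61425338), Cer1 has 2 exons on the minus strand of chromosome 4 (chr4:82881751-82885148), and the Tdgf1 transcript used has 6 exons on the minus strand of chromosome 9 (chr9:110939603-110946158). Lefty2 (chr1:180893108-180899103) and Lefty1 (chr1:180935022-180938400), each with 4 exons, lie 35919 bases apart on the plus strand of chromosome 1. Gdf3 (2 exons) is on chromosome 6, Foxh1 (3 exons) on chromosome 15 and Acvr2b (10 exons) on chromosome 9. RefSeq's promoter table (GRCm38.p6) held 4 of the 9 members. Below are the 250 bases that precede the gene start of the 3 whose levels the results turn on: Cer1 (chr4:82885152-82885401, minus strand), Tdgf1 (chr9:110946159-110946408, minus strand) and Nodal (chr10:61417722-61417971, plus strand). Capitals mark CAGAC, a motif bound by Smad proteins, and letters were searched on both strands.
Cer1: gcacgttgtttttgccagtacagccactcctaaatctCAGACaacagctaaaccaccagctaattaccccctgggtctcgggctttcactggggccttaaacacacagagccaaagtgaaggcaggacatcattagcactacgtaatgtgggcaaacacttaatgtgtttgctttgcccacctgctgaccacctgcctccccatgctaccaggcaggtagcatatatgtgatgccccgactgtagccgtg
Tdgf1: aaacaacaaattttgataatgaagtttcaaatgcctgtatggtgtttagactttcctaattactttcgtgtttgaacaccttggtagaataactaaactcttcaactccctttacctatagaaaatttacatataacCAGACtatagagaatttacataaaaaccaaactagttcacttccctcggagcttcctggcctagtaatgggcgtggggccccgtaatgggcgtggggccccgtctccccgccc
Nodal: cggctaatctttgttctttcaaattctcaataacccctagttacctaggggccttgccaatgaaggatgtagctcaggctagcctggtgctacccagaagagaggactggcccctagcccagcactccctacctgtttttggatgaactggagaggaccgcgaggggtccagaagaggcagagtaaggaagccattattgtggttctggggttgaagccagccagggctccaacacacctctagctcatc
The CAGAC match starts 213 bases before the gene start in Cer1 and 113 bases before it in Tdgf1, and the Nodal window holds none. Of 32851 promoters of the same length, 42.2% hold CAGAC, so a match is common. The Foxh1 motif AATCCACA, in 0.718% of promoters, is in none of these 3 windows nor in that of Acvr2b. A match or its absence describes these letters only.

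At day 0 the co-receptor was the most abundant transcript of the group per length in the controls. Tdgf1 stood at 259 ± 23.3 CPM per kb (SD, n = 3), followed by Lefty2 at 166 ± 25.0, Lefty1 at 105 ± 15.8, Gdf3 at 52.9 ± 9.01, Foxh1 at 44.2 ± 6.40, Nodal at 33.0 ± 2.89, Smad7 at 20.3 ± 1.79, Acvr2b at 9.85 ± 1.70 and Cer1 at 0.368 ± 0.156 CPM per kb. Gdf3 and Foxh1 overlapped between samples, and all other neighbours in this order were separate. By day 3 the controls had Lefty1 on top at 109 ± 40.1 CPM per kb, ahead of Foxh1 at 48.0 ± 7.21, and Tdgf1 at 9.74 ± 2.45 overlapped with Lefty2 at 8.99 ± 3.58 CPM per kb. In the knockout lines at day 3 all neighbours overlapped from Lefty1 down to Smad7, and the 3 lines of Lefty1 ranged from 4.71 to 154 CPM per kb (59.1 ± 82.5, SD, n = 3).

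**Figure D1:**
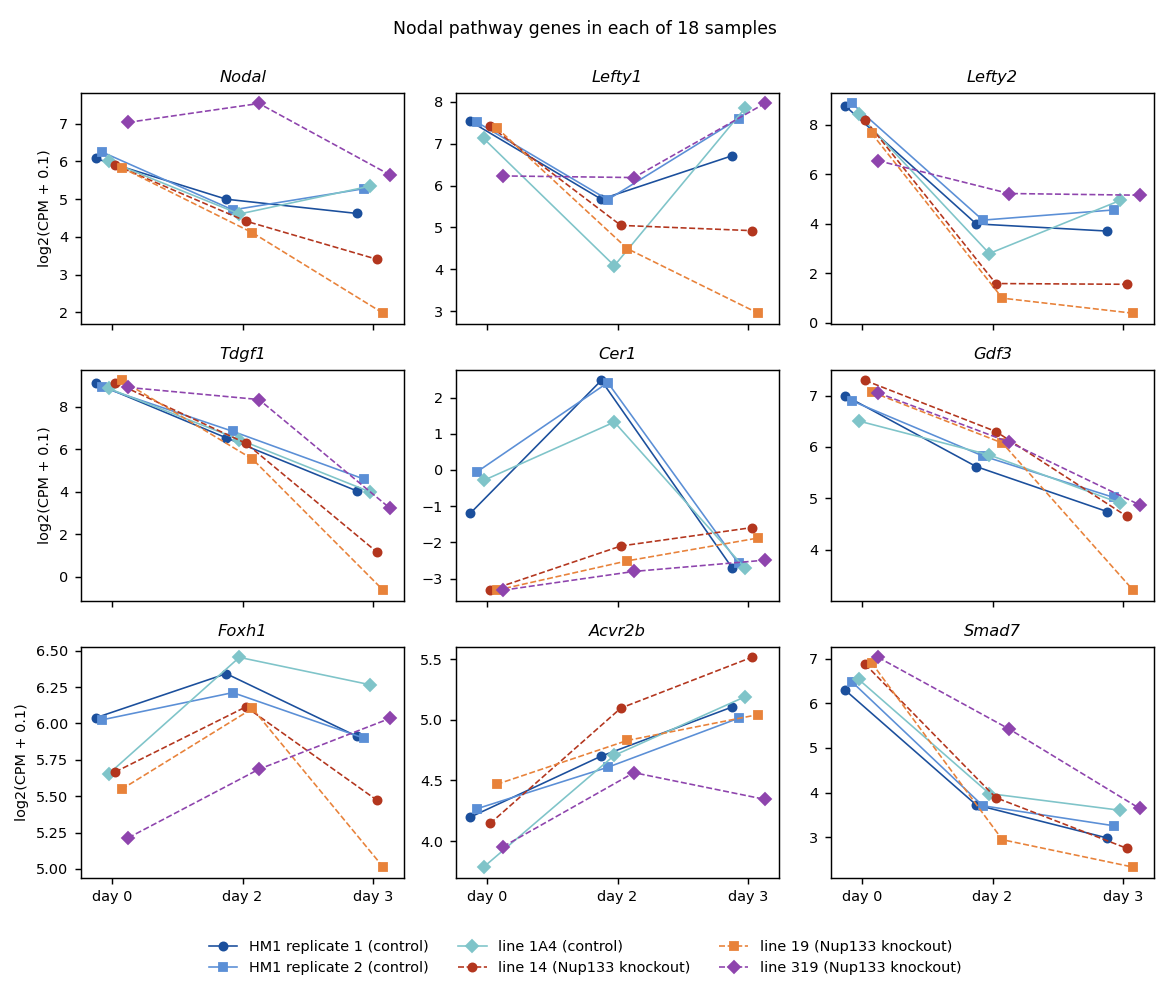
Level of each of the 9 genes as log2(CPM + 0.1) on the vertical axis at days 0, 2 and 3, 1 line per cell series; solid lines are the 3 control series and dashed lines the 3 Nup133 knockout lines, and each panel has its own vertical range. Cer1 peaks at day 2 in the controls and stays low in the knockout lines, and line 319 leaves the other knockout lines upwards in Nodal, Lefty1, Lefty2 and Tdgf1 at days 2 and 3.

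Between day 0 in serum with LIF and day 2 in N2B27, 6 of the 9 genes were called in the controls. Loss of serum, loss of LIF, the new medium, fewer fibroblasts and time cannot be told apart in this step. Of the 6 genes, 4 fell, where 15.5% of all genes tested fell, and 2 rose, where 19.7% rose. Smad7, an intracellular inhibitor of TGF-beta family receptors, went from 78.1, 89.1 and 92.8 CPM to 13.1, 13.0 and 15.7 CPM, a change of -2.65 ± 0.34 (adjusted p = 4.02e-05). Lefty2 went from 428, 461 and 342 CPM to 15.8, 17.5 and 6.83 CPM, a change of -4.84 ± 1.07 (adjusted p = 0.00266). The day 0 and day 2 samples of both genes were far apart with no overlap. Tdgf1 changed by -2.34 ± 0.63 (adjusted p = 0.00942) and the ligand Gdf3 by -1.05 ± 0.28 (adjusted p = 0.00943). Cer1 rose by 2.68 ± 0.40 (adjusted p = 1.99e-04), and Acvr2b, a type II receptor for activin and Nodal, rose by 0.60 ± 0.21 (adjusted p = 0.0344). Without either HM1 replicate the calls of Tdgf1 (adjusted p = 0.106 without replicate 1 and 0.0535 without replicate 2), Gdf3 (0.142 and 0.0834) and Acvr2b (0.155 and 0.0923) were lost, and that of Acvr2b also without line 1A4 (0.191). Tdgf1 also missed the threshold with no filter on low counts (0.0506), and Acvr2b with no background term (0.0773) or in the HM1-derived series alone (0.115).

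Nodal and Lefty1 were lower in every control at day 2 than at day 0 but were not called. Nodal stood at 67.5, 76.0 and 64.2 CPM at day 0 and at 31.9, 26.2 and 24.3 CPM at day 2 (-1.32 ± 0.63, adjusted p = 0.116). Lefty1 stood at 185, 183 and 140 CPM at day 0 and at 51.0, 50.6 and 16.9 CPM at day 2 (-2.03 ± 0.82, adjusted p = 0.0676). Neither gene's samples overlapped between these days. With the series as a paired term the 2 fits differed: as a fixed term in edgeR the adjusted p was 0.0193 for Nodal and 0.0544 for Lefty1, and as a random term in limma-voom 0.0742 for Nodal and 0.0357 for Lefty1.

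The day with retinoic acid was followed by 3 lower genes and no higher ones among the 9 in the controls, against 8.92% lower and 12.5% higher of all genes. Tdgf1 went from 92.8, 115 and 87.6 CPM at day 2 to 16.3, 24.3 and 15.9 CPM at day 3, a further change of -2.38 ± 0.64 (adjusted p = 0.0139). Cer1 fell by 6.11 ± 0.52 on the log2 scale (adjusted p = 3.45e-06), and Gdf3 by 0.87 ± 0.28 (adjusted p = 0.0385). Lefty1 stood at 105, 194 and 231 CPM at day 3, above all its day 2 values, with a change of 1.99 ± 0.83 that was not called (adjusted p = 0.103). Nodal (24.5, 38.6 and 40.6 CPM) and Lefty2 (12.9, 23.4 and 30.5 CPM) overlapped with their day 2 values. Foxh1, the DNA-binding partner of Smad2, stayed between 50.2 and 87.6 CPM in all 9 control samples and was not called in either step. Without an HM1 replicate, the calls of Tdgf1 (adjusted p = 0.134 and 0.0957, and 0.0688 with no filter) and Gdf3 (0.207 and 0.206) were lost. That of Gdf3 was also lost without line 1A4 (0.167), without line 14 (0.0612) or in the HM1-derived series alone (0.136).

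In the knockout lines the same names were called from day 0 to day 2 as in the controls, 4 lower and 2 higher, where 15.1% of all genes were lower and 20.8% higher. Smad7 changed by -2.69 ± 0.35, Lefty2 by -4.67 ± 1.135, Tdgf1 by -2.20 ± 0.65, Gdf3 by -0.98 ± 0.28 and Acvr2b by 0.64 ± 0.21, with adjusted p-values from 3.59e-05 to 0.0247. The falls differed in size between lines 14, 19 and 319. Lefty2 went from 292, 200 and 92.9 CPM to 2.89, 1.89 and 37.0 CPM. Tdgf1 went from 564, 604 and 481 CPM to 77.8, 46.5 and 324 CPM. Without line 319 the changes were -6.61 in Lefty2, -3.22 in Tdgf1 and -3.37 in Smad7, but -0.98 in Gdf3 and 0.67 in Acvr2b. The call of Cer1 rests on 9 counts in all 3 lines at day 2 against 0 at day 0 and gives a rise of at least 1.08-fold, with the 3-count floor in each day 0 library. Leaving out line 14 left 1 of the 6 calls, that of Smad7. Without line 19 or its day 2 sample Tdgf1 was lost (adjusted p = 0.0639 and 0.0611, and 0.0699 with no filter), in the HM1-derived series alone Gdf3 was lost (0.0514), and without an HM1 replicate Acvr2b was lost (0.0627 and 0.0521). From day 2 to day 3, 3 genes were lower and none higher, against 16.0% lower and 17.6% higher of all genes: Tdgf1 by -5.21 ± 0.73 (adjusted p = 9.78e-05), Gdf3 by -1.76 ± 0.29 (adjusted p = 3.94e-04) and Smad7 by -1.35 ± 0.34 (adjusted p = 0.00677). With the series as a paired fixed term in edgeR Nodal was also called lower in this step (adjusted p = 0.00815, and 0.0505 without it) and Lefty1 from day 0 to day 2 (0.0485), whereas as a random term in limma-voom neither was called (0.0706 for Nodal and 0.132 for Lefty1).

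Between the genotypes, Cer1 was the 1 member called at day 0 and again at day 2. The protein, Cerberus, is secreted and binds Nodal and BMP ligands. At day 0 the controls held 13, 36 and 18 counts of Cer1 and the 3 knockout lines none, so Cer1 was at least 8.22-fold lower in the knockout lines with a floor of 3 counts per library (adjusted p = 6.66e-04). At day 2 the controls held 243, 225 and 119 counts (5.46, 5.23 and 2.404 CPM) and the knockout lines 7, 1 and 1 (0.133, 0.0754 and 0.0432 CPM). That difference was -5.46 ± 0.51 (adjusted p = 3.09e-04), and the summed counts gave a ratio of 42.4 with an exact 95% interval of 22.2 to 93.1 for counting error only. No knockout sample reached the lowest control at either day. At day 3 the controls held 2 counts each and the knockout lines 14, 5 and 3, a difference of 1.43 ± 0.61 that was not called (adjusted p = 0.187).

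Calls at day 0 covered 0.854% of all genes and at day 2 1.6%. Over the 9 members the median difference was -0.007 at day 0 and 0.155 at day 2, beside 0.011 and 0.018 over all genes. The call of Cer1 held when any 1 series was left out at all days. With 1 day fitted alone it was lost at day 0 (adjusted p = 0.0629) and day 2 (adjusted p = 0.0593). Between day 2 and day 3 the genotype difference of Cer1 changed by 6.89 ± 0.79 (adjusted p = 0.00351, where 0.0383% of genes were called), which was lost without HM1 replicate 2 (adjusted p = 0.172) or line 14 (adjusted p = 0.106). From day 0 to day 2 the edgeR test called 0 members for such a change, against 0.0219% of genes, with 0 at an unadjusted p below 0.05 (7.16% of genes) and 0 by DESeq2.

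Tdgf1 was the 1 member called between the genotypes at day 3, when 5.2% of all genes were called. It stood at 16.3, 24.3 and 15.9 CPM in the controls and at 2.165, 0.549 and 9.34 CPM in lines 14, 19 and 319, with every knockout line below every control. The difference was -2.55 ± 0.68 (adjusted p = 0.0413). The call was lost without HM1 replicate 1 (0.164), HM1 replicate 2 (0.224), line 14 (0.188) or line 19 (0.0781), as well as with no filter on low counts, with transcripts summed per gene or with no term for background. At day 0 the same gene overlapped between genotypes, at 551, 484 and 465 CPM in the controls and 564, 604 and 481 CPM in the knockout lines (0.15 ± 0.60, adjusted p = 0.989). The members' median difference at day 3 was -0.49, beside 0.018 over all genes.

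**Figure D2:**
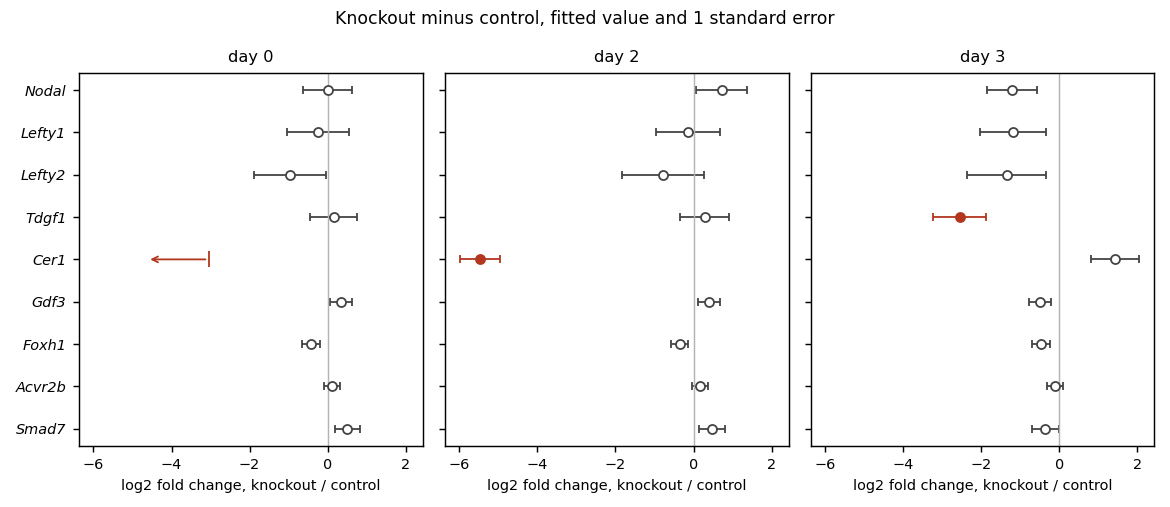
Log2 fold change of knockout over control for each gene at days 0, 2 and 3, with bars of 1 standard error; filled red points passed the adjusted p of 0.05 and open points did not, and the arrow for Cer1 at day 0 starts at its bound of 8.22-fold because the knockout lines held no counts. The bars of Nodal, Lefty1, Lefty2 and Tdgf1 are several times longer than those of Foxh1 and Acvr2b.

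Line 319 stood apart from the other knockout lines at day 2 in Nodal, Lefty1, Lefty2, Tdgf1 and Smad7. Nodal stood at 21.3 and 17.2 CPM in lines 14 and 19 and at 185 CPM in line 319, while the controls held 24.3 to 31.9 CPM. Lefty2 stood at 2.89 and 1.89 CPM in lines 14 and 19, below all controls (6.83 to 17.5 CPM), and at 37.0 CPM in line 319, above them. Tdgf1 stood at 77.8, 46.5 and 324 CPM against 87.6 to 115 CPM in the controls, and Lefty1 at 33.0, 22.4 and 73.0 CPM against 16.9 to 51.0 CPM. Smad7 stood at 14.7, 7.62 and 42.9 CPM against 13.0 to 15.7 CPM. Line 319 was thus above every control in all 5, and lines 14 and 19 were below every control in Nodal, Lefty2 and Tdgf1. The share of all genes with such a split at day 2 was not counted.

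At day 3 lines 14 and 19 were below every control in Nodal, Lefty1, Lefty2, Tdgf1, Gdf3, Foxh1 and Smad7, but not in Cer1 and Acvr2b. Of those lower genes, line 319 was below every control in Tdgf1 alone. How many of all genes split the lines in this way was not counted, so the split cannot be called particular to these genes. The distances were widest in Nodal, Lefty1, Lefty2 and Tdgf1. Nodal stood at 10.5 and 3.85 CPM in lines 14 and 19 and at 49.97 CPM in line 319, beside 24.5, 38.6 and 40.6 CPM in the controls. Lefty1 stood at 30.3, 7.62 and 250 CPM, beside 105, 194 and 231 CPM. Lefty2 stood at 2.83, 1.20 and 35.3 CPM, beside 12.9, 23.4 and 30.5 CPM. Set against the controls of its own background, line 19 lay lower than line 14 in each of these 4, for example at -4.22 against -2.23 in Lefty1 and -5.05 against -3.17 in Tdgf1 on the log2 scale, and line 319 lay between -0.76 in Tdgf1 and 0.30 in Nodal. At day 0 this split was not there in the same form: Lefty2 stood at 292, 200 and 92.9 CPM in the 3 lines and Lefty1 at 171, 167 and 75.0 CPM, with line 319 the lowest in both, while Nodal stood at 59.7, 57.0 and 131 CPM with line 319 the highest.

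**Figure D3:**
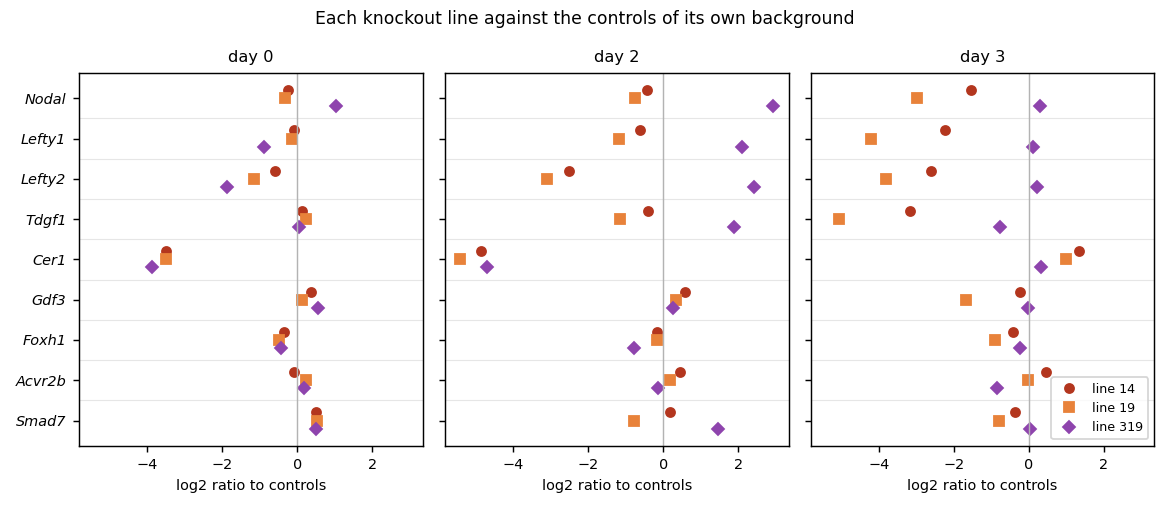
Log2 ratio (CPM with a prior count of 2) of each knockout line to the controls of its own background, the mean of the HM1 replicates for lines 14 and 19 and line 1A4 for line 319, for the 9 genes at days 0, 2 and 3. The 3 lines lie together in Cer1 at days 0 and 2, where the prior count limits how low a value can go, and apart in Nodal, Lefty1, Lefty2 and Tdgf1 at days 2 and 3.

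Within the HM1-derived series alone, 2 HM1 replicates against lines 14 and 19 with 6 residual degrees of freedom, 4 members were called at day 3, all lower. Nodal, the ligand, changed by -2.12 ± 0.39 (adjusted p = 0.0167), its feedback antagonists Lefty1 by -2.98 ± 0.53 (0.0153) and Lefty2 by -3.12 ± 0.41 (0.00546), and the co-receptor Tdgf1 by -3.81 ± 0.49 (0.00535). In that fit 6.06% of all genes were called. At day 2 it called Cer1 (-5.46 ± 0.52, adjusted p = 0.00411) and Lefty2 (-2.74 ± 0.41, adjusted p = 0.0173), with 1.32% of all genes called, and at day 0 Cer1 alone (adjusted p = 0.0108), with 1.69% of genes called. This comparison was chosen as a result of its own after the values of line 319 had been seen. All of its calls were lost when either HM1 replicate was left out, which leaves 1 control sample a day and the spread between lines 14 and 19: at day 3 the adjusted p was 0.246 and 0.546 for Nodal, 0.226 and 0.525 for Lefty1, 0.126 and 0.41 for Lefty2 and 0.138 and 0.403 for Tdgf1 without replicates 1 and 2. Lefty2 at day 2 was also lost without line 19 (adjusted p = 0.0594).

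Whether the genotype difference itself differed between the backgrounds was tested in a fit of 12 groups of genotype, day and background with 6 residual degrees of freedom. This fit too was chosen after the values were seen, and its single blastocyst-derived sample per group is assumed to vary like the HM1-derived ones. At day 2, 1 member was called, Lefty2, whose difference was 5.18 ± 0.70 higher between line 319 and line 1A4 than between lines 14 and 19 and HM1 (adjusted p = 0.0145, with 0.547% of all genes called). The call was lost without HM1 replicate 1 (adjusted p = 0.197) or replicate 2 (0.346). The corresponding values of Nodal (3.52 ± 0.67, adjusted p = 0.0557), Lefty1 (2.98 ± 0.89, 0.177), Tdgf1 (2.62 ± 0.73, 0.15) and Smad7 (1.65 ± 0.47, 0.157) were not called. At day 3 edgeR called 0 members, with 0.0219% of all genes called, and 5 had an unadjusted p below 0.05 (Nodal, Lefty1, Lefty2, Tdgf1 and Acvr2b, from 5.15e-04 to 0.00944), as did 9.12% of all genes. At day 0 it called 0 members, with 0.969% of genes called and 0 at an unadjusted p below 0.05 (13.3% of genes). DESeq2 was not run on this design.

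The members that were not called between genotypes at any day in the fit of all samples include both quiet and variable ones. Foxh1 was lower on average in the knockout at each day, by -0.43, -0.36 and -0.47, with adjusted p-values of 0.545, 0.387 and 0.236. Each knockout line lay below the controls of its own background at each day, by -0.16 to -0.89 on the log2 scale. Without line 319 Foxh1 was called lower at day 3 (-0.75 ± 0.19, edgeR adjusted p = 0.0253). In the HM1-derived series alone it was not called at day 3 (-0.65 ± 0.17, edgeR adjusted p = 0.0516). Acvr2b lay between 13.7 and 45.7 CPM in all 18 samples, with differences of 0.11, 0.16 and -0.11, and line 319 held its lowest day 3 value at 20.2 CPM. Gdf3 was higher in the knockout mean at days 0 and 2 (0.33 ± 0.28 and 0.40 ± 0.28) and lower at day 3 (-0.49 ± 0.29), when line 19 stood at 9.20 CPM and the other 5 samples between 25.1 and 32.4 CPM. At day 2 all 3 knockout lines (67.4 to 78.7 CPM) were above all controls (49.1 to 57.4 CPM) in Gdf3, with an adjusted p of 0.445. Smad7 at day 0 was likewise separate, at 117, 120 and 130 CPM in the knockout and 78.1 to 92.8 CPM in the controls (0.50 ± 0.32, adjusted p = 0.675). Fitted with day 0 alone Smad7 passed (edgeR adjusted p = 0.043). Gdf3 at day 0 was also separate and higher in the knockout (132.5 to 157 CPM against 90.8 to 127 CPM). Foxh1 at day 2 was separate and lower in the knockout (51.35 to 69.1 CPM against 74.0 to 87.6 CPM). Lefty2 at day 0 was lower in the same way (92.9 to 292 CPM against 342 to 461 CPM). The share of all genes separated between the genotypes was not counted.

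Other genes of the pathway were taken from 4 lists. In the edgeR fit of all samples no gene was called between genotypes at any day among 6 of 7 measured ligands and processing genes (such as the activin subunits Inhba and Inhbb and the protease Furin), 5 of 6 tested receptors and transducers (such as Smad2 and Smad4) and 9 of 9 negative regulators (such as Skil and Smurf2). At an unadjusted p below 0.05 they held 2, 0 and 0 genes at day 0, 0, 0 and 2 at day 2 and 0, 0 and 1 at day 3, where 10.6%, 20.4% and 21.9% of all genes passed that level at the 3 days. DESeq2 called 1 of them, the corepressor Tgif1, higher at day 2. Without line 19, Tgif1 and Trim33 were called higher at day 2 and Smurf2 lower at day 3. Without only the line 19 sample of day 2, Tgif1 was called higher at day 2 and Smurf2 and Ski lower at day 3. With day 3 fitted alone, Smurf2 was called lower. Fst, which encodes the activin antagonist follistatin, was called lower at day 0 in the HM1-derived series alone (-1.59 ± 0.32, edgeR adjusted p = 0.0407) and without line 319. The list medians were -0.33, 0.04 and 0.033 at day 0 and 0.21, 0.019 and -0.15 at day 3.

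The last list held target genes of the streak and node. Like the other lists it was chosen with earlier results of these data known. Its counts and median therefore describe these genes and do not test them against all genes. At day 0, 4 of 7 were lower in the knockout lines, where 0.788% of all genes were lower, with a list median of -1.99 beside 0.011 over all genes. T (Brachyury), which marks the primitive streak, stood at 42.5, 56.7 and 21.4 CPM in the controls and at 4.66, 2.51 and 2.00 CPM in the knockout (-3.72 ± 0.55, adjusted p = 0.00414). The homeobox genes Mixl1 (-4.21 ± 0.40, adjusted p = 7.54e-05) and Lhx1 (-5.53 ± 0.60, adjusted p = 2.82e-04) and the forkhead gene Foxa2 (-1.99 ± 0.39, adjusted p = 0.0198) were the others. At day 2, 2 were lower, where 0.963% of all genes were, Lhx1 (-4.20 ± 0.59, adjusted p = 0.00314) and T (-3.08 ± 0.58, adjusted p = 0.015), and at day 3 Lhx1 was higher (2.24 ± 0.46, adjusted p = 0.0133), as were 2.75% of all genes. Eomes, a streak gene that Nodal signals induce, was not called at any day in this edgeR fit (adjusted p = 0.102, 0.295 and 0.122), and neither was Gsc. Eomes was called lower at day 0 by DESeq2, by limma-voom with the paired term, with the day fitted alone, in the HM1-derived series alone and without line 1A4, line 319 or the line 19 sample of day 2. At day 3 it was called higher with the day fitted alone, in the HM1-derived series alone and without line 319 or the line 19 sample of day 2. With day 2 fitted alone, 0 of the 7 list genes were called, and 0 of all genes. Leaving out 1 series at a time, between 2 and 5 of the list were lower at day 0 and between 1 and 3 at day 2. The fewest were left without HM1 replicate 2 at day 0 and without HM1 replicate 1, HM1 replicate 2 or line 19 at day 2. Lhx1 no longer passed at day 3 when HM1 replicate 1 or HM1 replicate 2 was left out, and without line 319 the list held 2 higher and 3 lower genes at day 3.

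Levels of other genes split the lines at day 3 as Nodal and the Lefty genes did. Nanog, a pluripotency gene, stood at 64.3, 84.6 and 66.4 CPM in the controls and 24.1, 9.85 and 71.3 CPM in the knockout lines (-1.23 ± 0.51, adjusted p = 0.171 over all samples and -2.13 ± 0.41, adjusted p = 0.018 in the HM1-derived series). Summed over 8 stem cell markers, the day 3 controls held 653 to 756 CPM, lines 14 and 19 held 489 and 330 CPM and line 319 held 989 CPM. Summed over 6 neural progenitor markers, the controls held 294 to 349 CPM, lines 14 and 19 held 618 and 918 CPM and line 319 held 271 CPM. At day 3, 0 of 8 stem cell markers and 2 of 6 neural markers, both higher, were called between genotypes in the edgeR fit. These marker levels moved with the low Nodal, Lefty and Tdgf1 levels of lines 14 and 19, and their part in them was not tested.

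**Figure D4:**
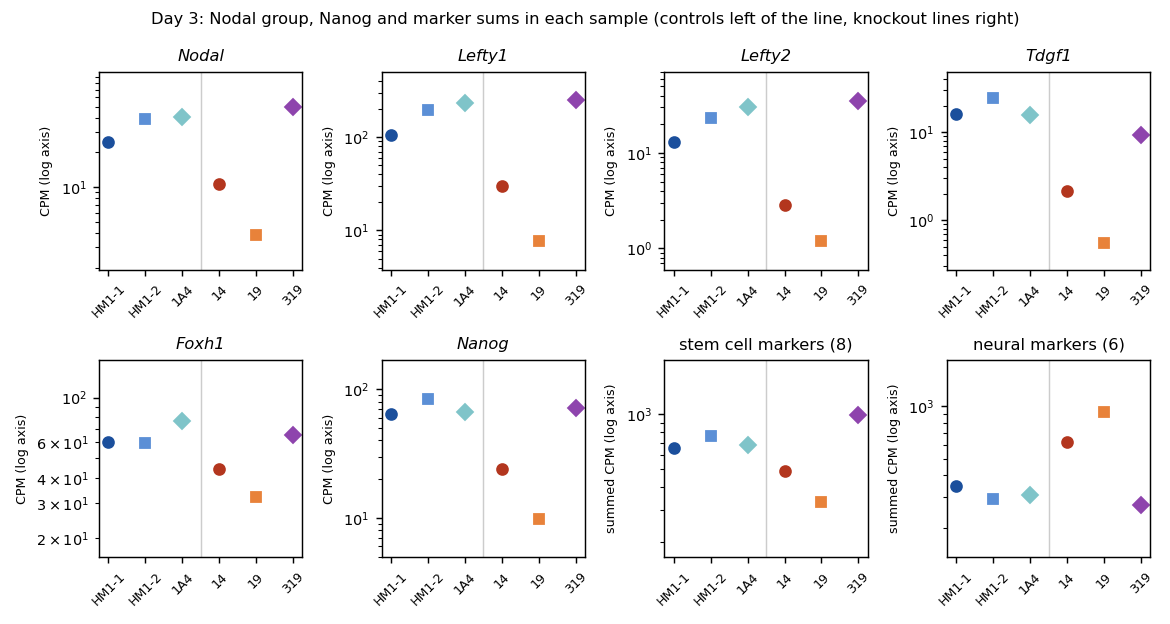
Day 3 levels in each of the 6 samples, in CPM on a log axis, of Nodal, Lefty1, Lefty2, Tdgf1, Foxh1 and Nanog, and the summed CPM of 8 stem cell and 6 neural progenitor markers, with the controls to the left of each grey line. Lines 14 and 19 lie below the controls in the 6 genes and in the stem cell sum and above them in the neural sum, and line 319 lies within or above the range of the controls in all but Tdgf1 and the neural sum.

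Markers of other cell types were set beside Cer1. The 6 primitive streak markers, of which T, Mixl1, Eomes and Gsc are also in the target list, summed to 57.4 to 119 CPM in the day 0 controls and 13.2 to 17.97 CPM in the knockout lines, and 4 of the 6 were called lower. At day 2, when Cer1 peaked in the controls, their sums were 15.3 to 32.2 CPM in the controls and 10.1, 9.88 and 34.8 CPM in the knockout lines, with 1 called lower. Of 10 markers of primitive and visceral endoderm, the yolk sac genes Ttr and Afp were at or under 3 counts in every sample of days 0 and 2, and the sums overlapped between genotypes at day 0 (296 to 387 and 291 to 691 CPM), with 1 of 8 tested called lower at day 0 and 1 higher at day 2. The 9 fibroblast markers summed to 1573 to 2200 CPM in the day 0 controls and 1255 to 1603 CPM in the knockout lines, with 0 of 8 tested called. At day 2 the sums were 692 to 949 and 273 to 773 CPM, with 2 called lower, and at day 3 674 to 853 and 370 to 572 CPM, also with 2 called lower. The part of these cells in the Cer1 difference was not tested.

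Over the 18 samples, the tested genes whose log2 CPM was most like each member's were found by Pearson's r, as a description of samples that share 6 series and 3 days. Tdgf1 was most like its processed copy Tdgf1-ps1 (0.995), with which 12.5% of the 50-base windows of its transcript are identical, so reads may have been split between them. Smad7 was most like the pluripotency genes Klf5 (0.988) and Nr0b1 (0.984), Gdf3 like Hsf2bp (0.964) and Lefty2 like Spaca6 (0.961). Lefty1 was most like Tmem63a (0.9), Nodal like Gpa33 (0.905), Foxh1 like Cldn7 (0.938), Acvr2b like Bcr (0.926) and Cer1 like Tnks1bp1 (0.866). Among the members, Tdgf1 and Gdf3 were the most alike (0.955). Lefty1 and Lefty2 share 281 windows of 50 bases, 17.9% of those of Lefty1 and 11.6% of those of Lefty2, so their counts are uncertain by the reads that fell there. The other members shared at most 2.02% of windows with any gene.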

How the data were processed

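The deposited files hold raw counts per Ensembl transcript, 1 file per technical replicate (72 files, 18 samples). Per the labels' protocols, polyA RNA was made into TruSeq Stranded libraries. Per the submitters' processing notes, bcl2fastq 2.17.1.14, STAR 2.4.0k, SAMtools, HTSeq and mm10 were used; their roles, strand setting and annotation are not given in the sources used here. Transcripts matched GENCODE M21 for 108214 of 110379 identifiers, and unmatched ones held 1.44% to 2.46% of counts. Transcripts of a gene share reads (their sum is 2.62 to 2.92 times the counts used), so 1 transcript stood for a gene. Technical replicates differed by little more than counting error (chi-square per degree of freedom 1.01 to 1.03).

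edgeR 4.0.16 (R 4.3.3, limma 3.58.1) fitted 6 groups and a background term, with TMM, filterByExpr, robust estimation, 11 residual degrees of freedom and a biological coefficient of variation of 0.246. P-values measure the spread between these samples. Samples of a series are 1 cell line over days, so they pair by construction; their deviations correlated above 0.1 in 16 of 18 pairs of days. The members, lists and rules were chosen with earlier results of these data known. All members are named, list genes where called between genotypes at some day (Nanog, Eomes and Gsc were added after their values were seen), and per member up to 2 of its most alike genes; some genes that these rules pick are not reported here. Intervals and floors cover counting error only. The fit was tested before use on simulated counts with the same spread for all genes and changes in the knockout at day 0 only. Differences between lines or backgrounds were not simulated, so the simulation does not cover them. DESeq2 1.42.0 and the other alternatives are in the closing section.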

Additional observations from a re-analysis of the deposited data

Results flagged for a closer look

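Differences that themselves differed, by a test, between days or backgrounds were picked out. The genotype difference in Cer1 changed by 6.89 ± 0.79 (log2, edgeR adjusted p = 0.00351) between day 2, when the controls held 587 counts in all and the knockout lines 9, and day 3, when they held 6 and 22. The day 3 side of that change therefore rests on few counts, with a knockout over control ratio of 3.02 (exact 95% interval 1.19 to 9.09). The genotype difference in Lefty2 at day 2 was 5.18 ± 0.70 higher in the blastocyst-derived pair than in the HM1-derived series (adjusted p = 0.0145).

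Outside the 9 members, 4 genes of the pathway and marker lists were called for the same difference between backgrounds at day 2. Fst, which encodes the activin antagonist follistatin, gave 3.77 ± 0.57 (adjusted p = 0.023), with 46.6 CPM in line 319, 6.46 and 8.29 CPM in lines 14 and 19 and 6.89 to 18.1 CPM in the controls. Pmepa1, an inhibitor of TGF-beta signalling, gave 2.28 ± 0.34 (adjusted p = 0.0223), with 15.1 CPM in line 319 and 3.92 to 5.69 CPM in the other 5 samples. Eomes gave 2.00 ± 0.34 (adjusted p = 0.04), with 20.9 CPM in line 319 and 5.58 to 7.44 CPM in the others. Wnt3, a Wnt ligand of the primitive streak, gave 3.88 ± 0.59 (adjusted p = 0.023), with 9.60 CPM in line 319, 0.913 and 0.829 CPM in lines 14 and 19 and 2.69 to 4.54 CPM in the controls. These 4 values and that of Lefty2 rest on the single day 2 samples of lines 319 and 1A4, and without HM1 replicate 1 or HM1 replicate 2 the edgeR fit called 0 of all genes for this difference. Background, karyotype, sex chromosomes and allele cannot be told apart in line 319.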

How the results depend on the processing

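Over 1693 alternatives to the members' results, 1543 kept direction and side of the threshold, 57 lost a call, 93 gained one and 0 reversed a call; in 70 the sign of a value differed, none of them called. Counts of members called that moved by more than 1.5 times are as follows, with those nearer to the reported count given only for the HM1-derived series at day 3. Knockout against control at day 2 (1 member) gave 2 in the HM1-derived series alone, 0 with the day fitted alone and 1 to 2 leaving out a replicate. At day 3 (1) it gave 0 with no filter, 0 with transcripts summed, 0 with no background term, 4 in the HM1-derived series and 0 to 5 leaving out a replicate, 5 without line 319. The change of the genotype difference from day 2 to day 3 (1) ranged from 0 to 2. Day 0 to day 2 ranged from 3 to 9 in controls (6) and from 1 to 8 in knockout lines (6), and day 2 to day 3 from 1 to 4 in controls (3) and 3 to 5 in knockout lines (3), where the HM1-derived series gave 5. The HM1-derived comparison gave 2 with no filter, 2 without the line 19 sample of day 2 and 0 to 3 leaving out a replicate at day 0 (1), 4 with no filter and 0 to 5 at day 2 (2), and 0 to 7 leaving out a replicate, 5 by DESeq2, 5 with no filter and 6 without the line 19 day 2 sample at day 3 (4). The difference between backgrounds gave 5 with no filter, 4 without the line 19 day 2 sample and 0 to 6 at day 2 (1), and 4, 3 and 0 to 8 at day 3 (0). The causes were not tested.

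With the series as a replicate block (paired, random term), the correlation within a series was 0.00947. Cer1 at day 2 then gave -5.30 (adjusted p = 6.34e-05) and Tdgf1 at day 3 -2.77 (adjusted p = 0.0424), and beyond the paired values given above no call of a member changed. Over all genes, knockout against control called 156, 292 and 951 genes at days 0, 2 and 3, with 556, 1400 and 2063 by DESeq2, 244, 0 and 2546 with the day fitted alone, 313 at day 0 in the HM1-derived series, and 185 and 516 at days 2 and 3 with no background term. The changes of the genotype difference called 4 and 7 genes, with 76 and 117 by DESeq2, 7 and 16 with no filter, 0 and 14 in the HM1-derived series, 1 and 3 with the fixed block, and 2 in the first step with no background term. Without the line 19 sample of day 2 the genotype calls were 380 at day 0 and 3007 at day 3, and leaving out a replicate gave 18 to 406, 22 to 1374 and 17 to 2019 at days 0, 2 and 3, and 0 to 10 and 1 to 133 for the changes. The difference between backgrounds (177, 100 and 4 genes) gave 724, 1039 and 465 with no filter, 2022, 1096 and 725 without the line 19 day 2 sample, and from 0 up to 4084, 8919 and 3414 leaving out a replicate, the highest without line 14, which leaves HM1 replicates of 1 line as the only spread. The HM1-derived comparison (313, 245 and 1121 genes) gave 800, 1822 and 2175 by DESeq2, 1031, 2654 and 2240 with no filter, 1836, 810 and 5553 without the line 19 day 2 sample, and 0 to 3166, 1 to 10327 and 1 to 8097 leaving out a replicate. Counts of few reads limit Cer1 at days 0 and 3.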

Other observations

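A neighbour of Lefty1 on chromosome 1 and a copy of Tdgf1 were looked at after their values were seen. Tmem63a, which starts 3944 bases after the end of Lefty1 and was its most alike gene, stood at 18.1, 20.9 and 26.9 CPM in the day 3 controls and at 9.69, 5.63 and 16.7 CPM in lines 14, 19 and 319. Lines 14 and 19 and line 319 were thus all below every control in Tmem63a at day 3. Tdgf1-ps1, the copy of Tdgf1, stood at 1.37, 1.94 and 1.17 CPM in the day 3 controls and at 14, 1 and 42 counts (0.231, 0.0343 and 1.09 CPM) in lines 14, 19 and 319, the order of lines seen in Tdgf1 itself.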
